A study of Mus musculus with 24 samples.

Results

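S100a8, S100a9, Ngp, Csf3r, Il1b, Clec4d and Dhrs9 are 7 genes associated with neutrophils. They were chosen by name, with earlier results of these data known. All 7 were held in the deposited table, which has 12091 genes. The study asked what pleiotrophin (PTN), a secreted heparin-binding growth factor, does in metastatic breast cancer, and RNA was sequenced in bulk from mouse tumors and cultured tumor cells in which PTN was inhibited. The comparisons below ask whether transcripts of these genes in a tumor differ when PTN is blocked. The cultured cells, which grow without leukocytes, give the background that tumor cells contribute to each transcript. S100a8, Clec4d and Dhrs9 were read in every sample of these cells. The 7 are called neutrophil genes for short, although not all are specific to neutrophils. The 24 samples fall into 8 groups of 3.

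In the first tumor model, cells of the mammary carcinoma line 4T1 were implanted into the mammary fat pad of female BALB/c mice at 8 wk of age, and treatment began once tumors were palpable. In the second, *MMTV-PyMT* mice on the FVB/N background, mammary tumors arise spontaneously because the polyoma middle T antigen is expressed from the mouse mammary tumor virus promoter, which is active in mammary epithelium. These mice were treated from 8 to 12 wk of age. Mice of both models received either C44, a mouse IgG control, or 3B10, a mouse monoclonal antibody against PTN, at 15 mg/kg with 2 doses per week, and kept their own neutrophils and other leukocytes. E0771 is a C57BL/6 mammary adenocarcinoma line, and E0771-LG was derived from a lung metastasis of it. Each line carried either shCtrl, a pLKO.1 vector with a sequence against EGFP, or shPTN, a single shRNA against PTN, and infected cells were selected with puromycin as separate populations. Differences between populations that arose during selection and the effect of the shRNA cannot be told apart. Cultured 4T1 cells and cells of *MMTV-PyMT* tumors were not analysed here, so the E0771 lines stand in for tumor cells of another strain.

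Neutrophils mature in the bone marrow under granulocyte colony-stimulating factor (G-CSF), whose receptor is encoded by Csf3r, and their progression depends on transcription factors of the C/EBP family. Granule proteins such as NGP are made mainly by immature precursors, whereas S100A8 and S100A9, the subunits of calprotectin, stay abundant in the cytosol of mature cells. In breast tumors neutrophils are known for restraining T cells and for aiding the spread of tumor cells.

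Values of the *MMTV-PyMT* tumors and of the cells are log2 CPM, where CPM is the count of reads per M reads, from which whole reads could be recovered, with 16.26 to 19.25 M reads per tumor and 15.63 to 21.12 M reads per cell sample. Every C44 library of *MMTV-PyMT* tumors was deeper than every 3B10 library, at 18.76 M or more against 18.44 M or less. Values of the 4T1 tumors followed another scale, normalized for gene length, and their depth is unknown. Levels in 4T1 tumors were therefore not set beside those of other samples. A log2 fold change below 0 means a lower mean with 3B10 or with shPTN. limma supplied the p-values, which were adjusted by the method of Benjamini and Hochberg across the genes tested in a comparison, and a gene was called when the adjusted value was under 0.05. Ptn itself had 128, 92 and 80 reads in E0771 shCtrl against 12, 21 and 22 in shPTN cells, and 216, 446 and 248 in E0771-LG shCtrl against 56, 35 and 45 in shPTN cells. Every shPTN sample held fewer Ptn reads than every shCtrl sample of its line.

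S100a8 and S100a9 encode the calcium-binding subunits of calprotectin. S100a8 (ENSMUSG00000056054) spans bases 90668978 to 90670035 of chromosome 3, plus strand, in GRCm38. S100a9 (ENSMUSG00000056071) lies 22.6 kb further on the same chromosome, on the minus strand from 90692632 to 90695721. Ngp (ENSMUSG00000032484), which encodes neutrophilic granule protein, spans bases 110419747 to 110423012 of chromosome 9, plus strand. The promoters of these genes are shown because the calprotectin pair moved together in 4T1 tumors and Ngp had the lowest log2 fold change of the 7 genes there. They are taken from RefSeq on GRCm38.p6, where 7 of 7 genes were matched, and run from 250 bases before to 50 bases after the start site, 5′ to 3′ on the strand of the gene. Their positions are chr3:90668821-90669120 for S100a8, chr3:90695672-90695971 for S100a9 and chr9:110419558-110419857 for Ngp. Capitals mark matches to TTNNGNAA, a core of the C/EBP motif, on either strand.
S100a8: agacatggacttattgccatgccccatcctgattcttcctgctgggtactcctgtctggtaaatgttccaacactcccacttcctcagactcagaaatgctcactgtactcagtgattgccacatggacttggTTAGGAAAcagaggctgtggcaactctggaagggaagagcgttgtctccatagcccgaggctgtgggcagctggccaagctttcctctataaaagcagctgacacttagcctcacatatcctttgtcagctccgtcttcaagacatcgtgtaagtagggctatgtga
S100a9: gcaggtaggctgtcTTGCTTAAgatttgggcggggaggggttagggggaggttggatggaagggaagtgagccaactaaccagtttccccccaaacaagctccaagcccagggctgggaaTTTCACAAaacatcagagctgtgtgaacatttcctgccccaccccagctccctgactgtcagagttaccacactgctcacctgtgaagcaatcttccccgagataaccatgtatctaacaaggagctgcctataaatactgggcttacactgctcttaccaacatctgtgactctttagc
Ngp: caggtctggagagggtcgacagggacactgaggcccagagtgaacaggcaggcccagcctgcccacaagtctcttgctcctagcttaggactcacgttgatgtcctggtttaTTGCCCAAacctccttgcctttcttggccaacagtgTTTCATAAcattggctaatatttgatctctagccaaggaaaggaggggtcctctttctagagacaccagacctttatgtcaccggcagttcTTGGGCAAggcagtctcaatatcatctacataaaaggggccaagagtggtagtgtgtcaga

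The S100a8 promoter holds 1 such match, that of S100a9 holds 2 and that of Ngp holds 3. Of the 7 promoters 6 held at least 1 match, all but that of Csf3r, beside 40.7% of 32851 mouse promoters of the same length. TATAAA, searched on either strand, was found in 4 of the 7 promoters, those of Dhrs9, Il1b, S100a8 and S100a9, beside 13.6% of all promoters. A match describes the letters in the window and does not show that a factor binds there.

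In 4T1 tumors the length-normalized log2 values of S100a8 were 8.97, 8.95 and 9.91 with C44 and 9.05, 8.35 and 8.08 with 3B10. C44 replicate 3 was the highest of the 6 tumors, and 3B10 replicate 1 lay among the C44 tumors, so the groups overlapped. S100a9 followed nearly the same course, with 9.13, 8.99 and 9.75 in C44 tumors and 9.20, 8.54 and 8.14 in 3B10 tumors. The same 3B10 tumor, replicate 1, again lay within the C44 range. The log2 fold change was −0.78 (SE 0.33) for S100a8 and −0.66 (SE 0.30) for S100a9, with adjusted p-values of 0.776 and 0.801 by limma. With 1 tumor left out S100a8 ran from −1.06 (without 3B10 replicate 1) to −0.47 (without C44 replicate 3), and S100a9 from −0.95 (without 3B10 replicate 1) to −0.42 (without 3B10 replicate 3). The difference between the subunits, S100a8 minus S100a9 on the log2 scale, stayed between −0.19 and 0.16 in the 6 tumors. In bulk RNA, fewer neutrophils and less RNA of a gene per neutrophil cannot be told apart.

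In *MMTV-PyMT* tumors S100a8 had 213, 452 and 56 reads with C44 (3.48, 4.55 and 1.59 log2 CPM) and 196, 130 and 181 reads with 3B10 (3.59, 2.82 and 3.48 log2 CPM). The C44 tumors held both the highest and the lowest value, and every 3B10 tumor lay between them. S100a9 had 86, 86 and 2 reads in C44 tumors (2.17, 2.17 and −2.91 log2 CPM) and 16, 30 and 18 reads in 3B10 tumors (0.02, 0.73 and 0.19 log2 CPM). C44 replicate 3 was lowest for both subunits among the 6 tumors of the model, and the other C44 tumors were above every 3B10 tumor for S100a9. The log2 fold change was 0.09 (SE 0.69) for S100a8 and −0.17 (SE 1.31) for S100a9, each with an adjusted p of 1 by limma. Without C44 replicate 3 these became −0.72 and −1.86. Without 3B10 replicate 1 the value for S100a8 was −0.06, and without C44 replicate 1 or without replicate 2 that for S100a9 was 0.68. S100a8 also turned to −0.02 under quantile normalization and to −0.41 with weights per sample. S100a8 exceeded S100a9 in each of these tumors, by 1.30 to 4.50 on the log2 scale.

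Ngp, a cystatin-related protein of secondary granules, had values of 4.73, 5.32 and 5.47 in C44 tumors and 3.42, 4.07 and 3.70 in 3B10 tumors of the 4T1 model. Every 3B10 tumor lay below every C44 tumor. The mean level off the log scale was 36.5 ± 9.36 (SD, n = 3) with C44 and 13 ± 3.11 (SD, n = 3) with 3B10. The log2 fold change was −1.44 (SE 0.25), which is 36.7% of the control level, with an adjusted p of 0.461 by limma. Ngp ranked 11 of 11467 genes by p, and leaving out each tumor in turn gave values from −1.67 to −1.29. In *MMTV-PyMT* tumors Ngp had 21, 0 and 1 reads with C44 and 0, 1 and 0 with 3B10. A single tumor, C44 replicate 1, thus held nearly all its reads, and Ngp did not pass the filter on low values in this model.

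**Figure D1:**
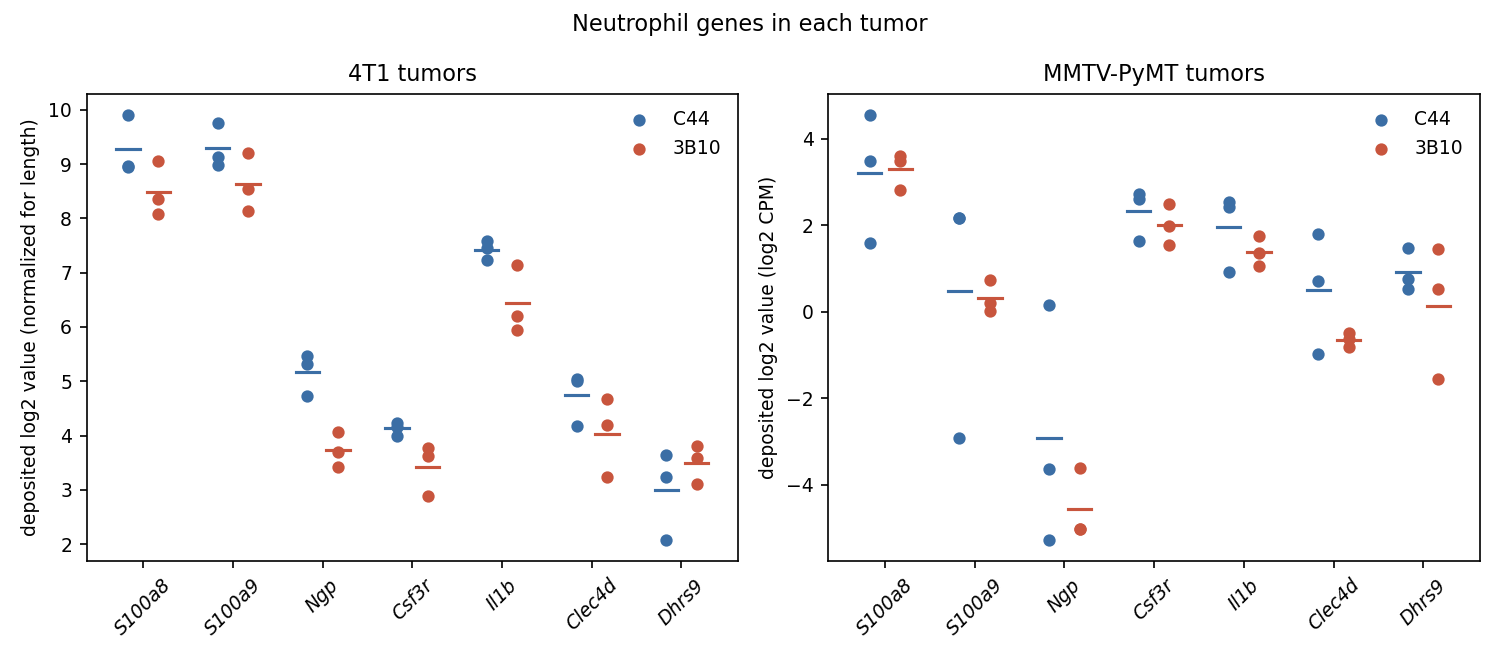
Level of the 7 neutrophil genes (log2 value, y axis) in each 4T1 tumor (length-normalized log2 values) and each *MMTV-PyMT* tumor (log2 CPM), with points for tumors by antibody and lines for group means. Ngp runs from 4.73 to 5.47 in C44 and from 3.42 to 4.07 in 3B10 tumors of the 4T1 model, and S100a9 of *MMTV-PyMT* C44 replicate 3 stands at −2.91.

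Csf3r (ENSMUSG00000028859), the receptor for G-CSF, spans bases 126024550 to 126044440 of chromosome 4, plus strand. Its values in 4T1 tumors were 4.00, 4.15 and 4.24 with C44 and 3.62, 3.77 and 2.89 with 3B10. The groups did not overlap, and 3B10 replicate 3 was the lowest tumor. limma put the difference at −0.70 with an SE of 0.24 and an adjusted p of 0.725, and at −0.43 without that tumor. In *MMTV-PyMT* tumors Csf3r had 117, 127 and 58 reads with C44 and 91, 72 and 47 with 3B10. C44 replicate 3 fell within the 3B10 range, so the groups overlapped. Here the estimate of limma was −0.32 with an SE of 0.40 and an adjusted p of 1, with −0.67 without C44 replicate 3 and −0.10 without 3B10 replicate 3.

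Clec4d (ENSMUSG00000030144), a C-type lectin receptor of myeloid cells, spans bases 123262111 to 123275265 of chromosome 6, plus strand. In 4T1 tumors it had values of 5.04, 5.01 and 4.18 with C44 and 4.67, 4.2 and 3.23 with 3B10. C44 replicate 3 and 3B10 replicate 3 were the lowest tumors of their groups, and the groups overlapped. By limma Clec4d had a difference of −0.71 with an SE of 0.39 and an adjusted p of 0.858, and this ranged from −1.03 without 3B10 replicate 1 to −0.31 without 3B10 replicate 3. In *MMTV-PyMT* tumors 31, 66 and 9 reads were found with C44 and 10, 10 and 11 with 3B10. C44 replicate 3 was the lowest of these tumors, and the gene passed the filter value in 2 of 6 of them, so it was not tested there.

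Il1b (ENSMUSG00000027398), the inflammatory cytokine interleukin-1β, spans bases 129364570 to 129371139 of chromosome 2, minus strand. The antisense gene Il1bos overlaps it, and since the strand used in counting is not stated, reads of the pair cannot be told apart. In 4T1 tumors Il1b had values of 7.59, 7.46 and 7.23 with C44 and 7.15, 6.21 and 5.94 with 3B10. The highest 3B10 tumor, replicate 1, lay just under the lowest C44 tumor, so the groups did not overlap. limma gave −1.0 for the log2 fold change, with an SE of 0.29 and an adjusted p of 0.722, and the level with 3B10 was 50.1% of that with C44. In *MMTV-PyMT* tumors Il1b had 111, 102 and 35 reads with C44 and 41, 38 and 54 with 3B10. C44 replicate 3 was again the lowest tumor, and the other C44 tumors were above every 3B10 tumor. limma estimated −0.57 with an SE of 0.49 and an adjusted p of 1, and the estimate was −1.09 without that C44 tumor and −0.28 without C44 replicate 1.

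Dhrs9 (ENSMUSG00000027068), a short-chain dehydrogenase/reductase that acts on retinoids, spans bases 69380445 to 69404533 of chromosome 2, plus strand. It had values of 3.65, 3.24 and 2.08 in C44 tumors and 3.11, 3.58 and 3.81 in 3B10 tumors of the 4T1 model. The mean was higher with 3B10, unlike that of the other 6 genes, and the groups overlapped. limma estimated 0.51 with an SE of 0.40 and an adjusted p of 0.919, and 0.05 without C44 replicate 3, the lowest tumor. In *MMTV-PyMT* tumors Dhrs9 had 27, 53 and 31 reads with C44 and 44, 26 and 5 with 3B10. 3B10 replicate 3 was far below the others. limma estimated −0.78 with an SE of 0.76 and an adjusted p of 1, and 0.07 without that tumor.

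**Figure D2:**
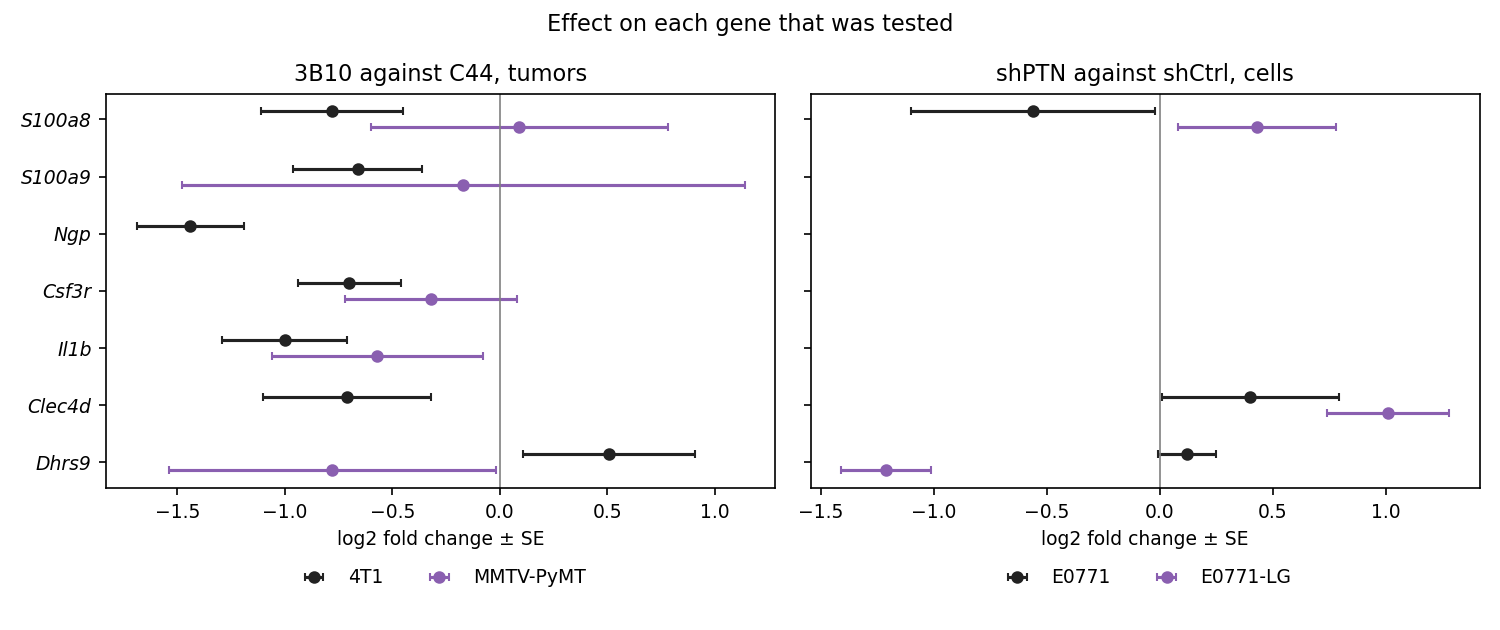
Log2 fold change (x axis, bars are SE) of each neutrophil gene tested, with 3B10 against C44 in tumors (left) and shPTN against shCtrl in cells (right). In 4T1 tumors 6 of 7 genes lie below 0 and Dhrs9 at 0.51, and in E0771-LG cells Dhrs9 lies at −1.21 and Clec4d at 1.01.

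Counted together, 6 of 7 genes had a lower mean with 3B10 in 4T1 tumors, beside 48.4% of the 11467 genes tested. Ngp, Csf3r and Il1b, 3 of 7, had every 3B10 tumor below every C44 tumor, which was true of 4.42% of all genes. limma called 0 of 7 genes at an adjusted p under 0.05, as it called 0% of all genes. At an unadjusted p under 0.05, 4 of 7 were lower (S100a8, Ngp, Csf3r and Il1b) beside 3.1% of all genes, and 0 of 7 were higher beside 3.17%. At this unadjusted threshold a fit of the 12 tumors together gave 1 of 7 (Il1b) beside 4.31% of all genes in either direction, and a fit of all 24 samples gave 0 of 7 beside 6.07%, where the fit of the 4T1 tumors alone had 6.27%. The median log2 fold change of the 7 genes was −0.71, against 0.01 over all genes tested. The 7 genes were chosen with earlier results of these data known, and S100a8 and S100a9 moved together (r 0.98 within the 4T1 tumors). Their counts therefore describe these genes and are not a test of them as a set. The marker lists below were chosen in the same way.

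In *MMTV-PyMT* tumors 5 of the 7 genes passed the filter. Of these 4 had a lower mean with 3B10, beside 39.0% of 11361 genes, and 0 had every 3B10 tumor below every C44 tumor, beside 2.27%. limma called 0 of 5 at an adjusted p under 0.05, beside 0% of all genes, and at an unadjusted p under 0.05 there were 0 lower and 0 higher, beside 1.18% and 1.52%. Without C44 replicate 3, 5 of 5 had a lower mean and 2, S100a9 and Il1b, had an unadjusted p under 0.05, beside 3.01% of all genes. Without 3B10 replicate 1, 5 of 5 also had a lower mean, but 0 had an unadjusted p under 0.05, beside 2.32%. Without C44 replicate 1, C44 replicate 2 or 3B10 replicate 3, each left out alone, 3 of 5 had a lower mean. In these fits 0 had an unadjusted p under 0.05, beside 3.13%, 3.56% and 3.14% of all genes. The median of the 5 genes was −0.32, against 0.05 over all genes tested.

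The difference between the models was tested with an interaction term of limma over the 12 tumors, in which each of the 7 genes passed the filter. Ngp and Clec4d passed it through the 4T1 tumors, so their values in this test do not speak to a difference between the models. The test called 0 of 7 genes and 0% of 11944 genes at an adjusted p under 0.05. At an unadjusted p under 0.05 it gave 0 of 7, beside 2.68% of all genes. Among the 5 genes that passed the filter in both models the largest difference in size was that of Dhrs9, −1.29 (SE 0.92, *MMTV-PyMT* minus 4T1), followed by 0.88 (SE 0.83) for S100a8, which was 0.07 without *MMTV-PyMT* C44 replicate 3 and 1.55 without C44 replicate 2. At the unadjusted threshold 1 of these 5 appeared when 1 *MMTV-PyMT* tumor was left out, namely S100a8 without C44 replicate 2, S100a9 without C44 replicate 3 and Dhrs9 without 3B10 replicate 1, beside 3.9%, 3.49% and 2.31% of all genes. Without 3B10 replicate 3 of that model the difference for Dhrs9 was −0.44.

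The levels of the genes were also set beside each other within each model. Off the log scale and per length, S100a8 and S100a9 led in 4T1 C44 tumors with 653 ± 269 and 643 ± 189 (SD, n = 3 each), and their ranges overlapped. Il1b followed with 173 ± 21.4 (SD, n = 3), apart from both neighbors. Ngp, Clec4d and Csf3r came next with 36.5 ± 9.36, 27.2 ± 8.30 and 17 ± 1.45 (SD, n = 3 each), where each range overlapped the next. Dhrs9 was last with 8.24 ± 4.21 (SD, n = 3), below every Csf3r value. In *MMTV-PyMT* C44 tumors the mean CPM per kb of exon was 18 for S100a8, 5.78 for S100a9, 2.26 for Il1b and 1.46 for Csf3r. It was 1.15 for Clec4d, 0.453 for Dhrs9 and 0.313 for Ngp. By these means S100a8, S100a9, Il1b and Clec4d held places 1, 2, 3 and 5 in both models, although S100a9 exceeded S100a8 in 2 of 3 C44 tumors of the 4T1 model, and in *MMTV-PyMT* tumors the range of each gene overlapped that of its neighbor in this order.

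Cultured tumor cells had no reads of some of these genes and many of others. S100a9 and Csf3r had 0 reads in 12 of 12 cell samples, or 0 in 218.3 M reads, which allows a level of up to 0.0137 CPM by counting error alone. Ngp had 2 reads, both in E0771 shPTN replicate 3, and Il1b had 21 reads in all, with 0 in 7 of 12 samples. S100a8 was read in every cell sample, with 24 to 153 reads. Its log2 CPM averaged 2.36 ± 0.22 in E0771 shCtrl and 2.06 ± 0.49 in E0771-LG shCtrl cells (SD, n = 3 each), against 3.21 ± 1.5 (SD, n = 3) in *MMTV-PyMT* C44 tumors. Off the log scale these are 5.13, 4.31 and 12.5 CPM. Clec4d had 29 to 137 reads per cell sample, a range that overlaps the 9 to 66 reads of *MMTV-PyMT* tumors. Dhrs9 had 164 to 526 reads in cells against 5 to 53 reads in *MMTV-PyMT* tumors, with no overlap. These differences between cells and tumors were not tested.

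**Figure D3:**
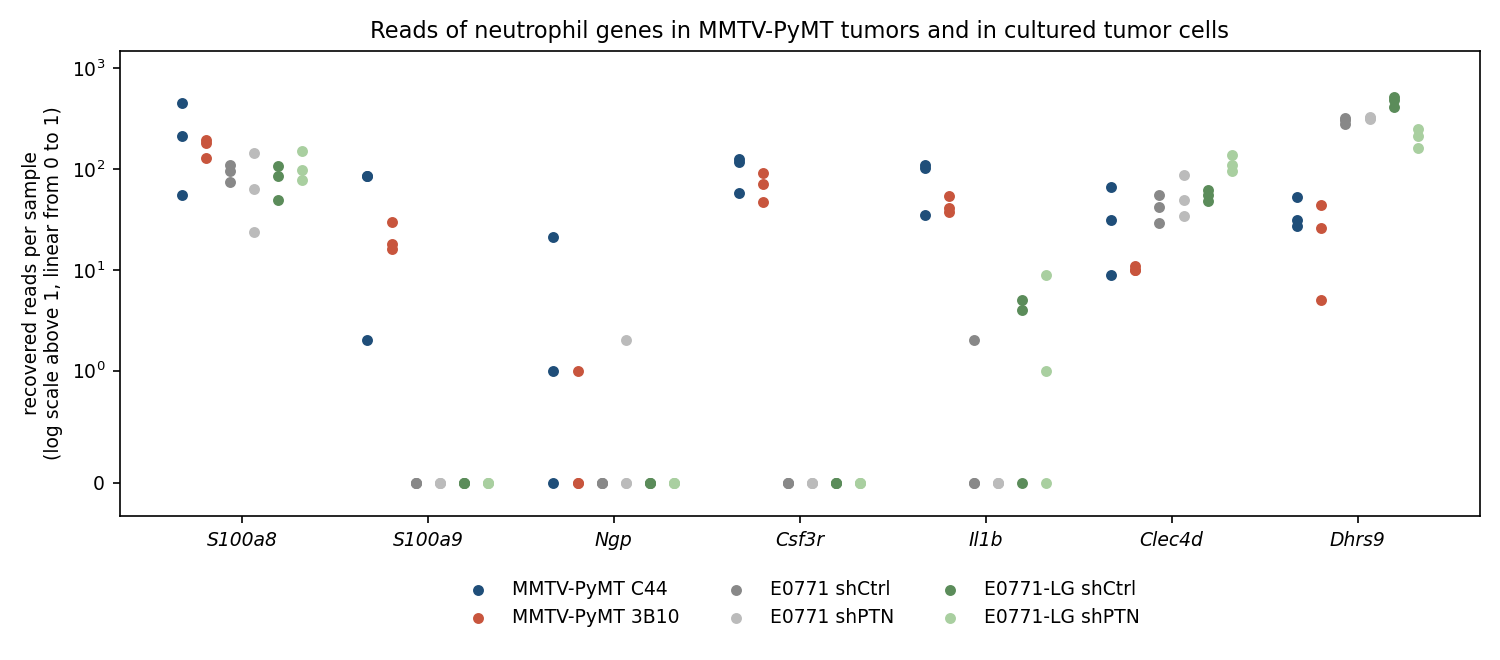
Reads of each neutrophil gene (y axis, log scale with 0 marked) in *MMTV-PyMT* tumors and in E0771 and E0771-LG cells, with a point per sample. S100a9 and Csf3r sit at 0 in the 12 cell samples, whereas S100a8 has 24 to 153, Clec4d 29 to 137 and Dhrs9 164 to 526 reads there.

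In E0771 cells 3 of the 7 genes passed the filter, and limma called 0 of 3 lower, beside 11.7% of 10394 genes, and 0 of 3 higher, beside 8.89%. At an unadjusted p under 0.05 there were also 0 of 3, beside 34.1% of all genes in either direction, and without shPTN replicate 1 there was 1, S100a8, beside 33.9%. Clec4d had 29, 42 and 56 reads with shCtrl and 88, 34 and 49 with shPTN. One shPTN sample, replicate 1, was above the others, and the groups overlapped. The log2 fold change was −0.56 (SE 0.54) for S100a8, 0.40 (SE 0.39) for Clec4d and 0.12 (SE 0.13) for Dhrs9, with adjusted p-values of 0.505, 0.505 and 0.572 by limma. With 1 sample left out Clec4d ran from 0.1 (without shPTN replicate 1) to 0.73 (without shPTN replicate 2). Dhrs9 ran from 0.05 (without shPTN replicate 3) to 0.18 (without shPTN replicate 1). S100a8 had 74, 110 and 95 reads with shCtrl and 144, 24 and 64 with shPTN. Without shPTN replicate 2, the lowest of these, its log2 fold change was 0.12. With weights per sample, where 54.1% of all genes were called, limma gave 0.24 for Dhrs9 with an adjusted p of 0.0248, and over the alternatives of this result the adjusted p ran from there to 0.929.

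In E0771-LG cells 1 of 3 genes was lower with shPTN, beside 22.1% of 10405 genes, and 1 of 3 was higher, beside 24.3%. Dhrs9 had 484, 413 and 526 reads with shCtrl and 216, 164 and 252 with shPTN. The groups did not overlap, with shPTN lower. Dhrs9 fell to 43.2% of the control level, a difference of −1.21 on the log2 scale with an SE of 0.20 and an adjusted p of 0.0008 by limma. Clec4d had 56, 62 and 48 reads with shCtrl and 97, 137 and 109 with shPTN. The groups did not overlap here either, with shPTN higher. Clec4d rose by 1.01 on the log2 scale (SE 0.27, adjusted p = 0.0119 by limma). Without shPTN replicate 2, the highest sample, Clec4d was at 0.84 with an adjusted p of 0.0687, and 1 of the 3 genes was called beside 31.1% of all genes. A fit of all 24 samples called neither gene and 39.6% of all genes, with adjusted p-values of 0.117 for Clec4d and 0.0551 for Dhrs9. Over the alternatives the adjusted p ran from 9.81e-05 to 0.117 for Clec4d and from 1.91e-05 to 0.0551 for Dhrs9. S100a8 had 49, 107 and 86 reads with shCtrl and 78, 153 and 98 with shPTN, so the groups overlapped. For S100a8 limma gave a difference of 0.43 with an SE of 0.35 and an adjusted p of 0.331. This difference was 0.13 without shPTN replicate 2 and 0.73 without shPTN replicate 1.

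The effect of shPTN on Dhrs9 differed between the lines by −1.33 (SE 0.25, E0771-LG minus E0771, adjusted p = 0.00129 by the interaction term of limma). This comparison, added after the values were seen, called 1 of 3 genes, beside 34.0% of 10600 genes. The limma fit of all 24 samples called 0 of 3 beside 22.3% of all genes, with an adjusted p of 0.175 for Dhrs9. Weights per sample in limma called 2 of 3 beside 64.6% of all genes, with Clec4d at 1.04 and an adjusted p of 0.011. Over the alternatives the adjusted p of the difference ran from 1.74e-06 to 0.175 for Dhrs9 and from 0.011 to 0.69 for Clec4d.

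Lists of neutrophil genes were read alongside. Of a list of 20 granule protein genes the table holds 11, Ngp among them, and in 4T1 tumors 9 of 11 had a lower mean with 3B10 (median log2 fold change −0.88). Without Ngp it was 8 of 10 (median −0.80). limma called 0, and at an unadjusted p under 0.05 there were 4 lower and 1 higher. Camp, the precursor of the antimicrobial peptide cathelicidin, had values of 3.56, 3.75 and 4.56 with C44 and 2.79, 2.80 and 2.13 with 3B10, which did not overlap (−1.38, SE 0.31). The most abundant gene of the list in both models was Lcn2, which encodes the iron-scavenging protein lipocalin-2 and is also made by epithelium. Its values in 4T1 tumors were 9.12, 9.20 and 9.63 with C44 and 9.45, 8.59 and 6.24 with 3B10, overlapping groups (−1.22, SE 0.71). The difference was −0.30 without 3B10 replicate 3 and −1.90 without 3B10 replicate 1. The list summed to 1040, 1090 and 1340 in C44 and to 1100, 885 and 648 in 3B10 tumors.

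In *MMTV-PyMT* tumors 8 granule protein genes passed the filter and 3 had a lower mean (median 0.10). limma called 0, and 1 was lower and 1 higher at an unadjusted p under 0.05. Lcn2 made up 80.5% of the list there, at 12.72, 12.38 and 12.49 log2 CPM with C44 and 11.65, 11.98 and 11.66 with 3B10. These groups did not overlap (−0.77, SE 0.21, adjusted p = 1 by limma). Ltf followed with a mean of 1330 CPM in C44 tumors, so the sum of the list rests mainly on Lcn2 and Ltf. Camp had 0 to 3 reads per C44 tumor. Padi4, which converts arginine to citrulline in histones, was higher in every 3B10 tumor, at 3.03, 3.23 and 4.23 against 2.39, 2.93 and 2.14 (1.02, SE 0.38, adjusted p = 1 by limma, with 0.65 for the difference without 3B10 replicate 3). Cultured E0771-LG shCtrl cells averaged 4.03 log2 CPM of Padi4, against 2.48 in the C44 tumors, so its reads need not come from neutrophils. The summed list was 7610, 7640 and 6890 CPM with C44 and 4760, 4870 and 5620 CPM with 3B10.

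Of 36 genes for neutrophil receptors and cytosolic proteins the table holds 25, including 5 of the 7 genes described above. Ly6g and Cxcr2 are not among the 25. In 4T1 tumors 21 of 25 had a lower mean (median −0.60), and without those 5 it was 17 of 20 (median −0.54). limma called 0, with 10 lower and 0 higher at an unadjusted p under 0.05. Ptafr, the receptor for platelet-activating factor, had values of 4.00, 4.16 and 3.75 with C44 and 3.27, 3.25 and 2.99 with 3B10 (−0.80, SE 0.18, adjusted p = 0.684 by limma). Gda, a guanine deaminase, had 5.20, 5.23 and 4.80 with C44 and 3.51, 4.55 and 4.01 with 3B10 (−1.05, SE 0.27). Neither gene overlapped between groups. S100a8 was the most abundant gene, and the list summed to 2600, 2350 and 3280 in C44 and to 2410, 1990 and 1530 in 3B10 tumors.

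In *MMTV-PyMT* tumors 10 of 15 such genes had a lower mean (median −0.22). limma called 0, and 1 was lower and 0 higher at an unadjusted p under 0.05. Slpi, an inhibitor of leukocyte proteases, had 6.10, 6.25 and 3.69 log2 CPM with C44 and 4.19, 3.58 and 5.16 with 3B10 (−1.03, SE 0.72), with C44 replicate 3 again low. The difference was −1.86 without that tumor and −0.58 without C44 replicate 2. Stfa2 and Stfa3, cystatins of neutrophils, had 0 reads in the 6 tumors of this model. The most abundant gene was Lrg1 (0.08, SE 0.35), which turned to −0.25 without C44 replicate 3 and was 0.37 without 3B10 replicate 3, and the list summed to 783, 740 and 524 CPM with C44 and to 793, 663 and 652 CPM with 3B10.

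Factors that attract neutrophils or drive their growth were represented by 7 of 11 listed genes. Cxcl5, Ppbp, Csf2 and Il17a are not held, so the counts below do not cover them. In 4T1 tumors 6 of 7 had a lower mean (median −0.24), and limma called 0, with 0 lower and 0 higher at an unadjusted p under 0.05. The most abundant was Pf4, a chemokine of platelets (0.00, SE 0.34), and the sums were 410, 428 and 331 with C44 and 425, 315 and 315 with 3B10. Cxcl3 had −1.05 (SE 0.66) and Lif −0.50 (SE 0.37), and with 1 tumor left out they ran from −1.85 to −0.62 and from −0.88 to −0.22. The other genes with a lower mean turned when 1 tumor was left out, to 0.48 for Cxcl1, 0.05 for Cxcl2 and Csf3 and 0.04 for Il23a. In *MMTV-PyMT* tumors 4 of 4 tested had a lower mean (median −1.08), with 0 called by limma and 2 lower and 0 higher at an unadjusted p under 0.05. The sums were 40.9, 36.1 and 24.5 CPM with C44 and 18.7, 19.8 and 29.7 CPM with 3B10, and Lif was the most abundant gene.

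Csf3 encodes G-CSF, the ligand of the receptor that Csf3r encodes. In *MMTV-PyMT* tumors it had 119, 84 and 62 reads with C44 and 17, 38 and 22 with 3B10. Every 3B10 tumor lay below every C44 tumor, and limma estimated −1.62 with an SE of 0.41 and an adjusted p of 1. Il23a, a subunit of interleukin-23, had 84, 32 and 67 reads with C44 and 15, 17 and 19 with 3B10, which did not overlap either (−1.54, SE 0.46, adjusted p = 1 by limma). Il23a had −0.11 (SE 0.17) in 4T1 tumors, and limma gave −1.32 (SE 0.33) with an adjusted p of 0.0168 for E0771 and 0.68 (SE 0.26) with an adjusted p of 0.0555 for E0771-LG. The 4T1 value of Il23a was 0.04 without C44 replicate 3, and its E0771-LG value was 0.42 without shCtrl replicate 1. In 4T1 tumors the values of Csf3 were 7.19, 6.14 and 6.48 with C44 and 6.75, 5.84 and 6.50 with 3B10. These groups overlapped, and limma estimated −0.24 with an SE of 0.32 and an adjusted p of 0.962, with 0.05 for the difference without C44 replicate 1. E0771-LG cells had 45, 168 and 61 reads of Csf3 with shCtrl and 1, 32 and 21 with shPTN. Every shPTN sample was lower, but the log2 fold change of −2.96 (SE 1.29) had an adjusted p of 0.106 by limma. Without shPTN replicate 1, the sample with 1 read, the difference was −1.5. E0771 cells had 4, 5 and 3 reads with shCtrl and 1, 0 and 0 with shPTN, too few for the filter.

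The interleukin-1 axis, to which Il1b belongs, was held whole with 10 of 10 genes, and each had a lower mean with 3B10 in 4T1 tumors (median −0.30, and −0.25 for the 9 genes other than Il1b). limma called 0, with 2 lower and 0 higher at an unadjusted p under 0.05. Il1a, the other interleukin-1 cytokine, had values of 4.64, 4.79 and 4.14 with C44 and 4.10, 3.37 and 2.98 with 3B10 (−1.04, SE 0.31, adjusted p = 0.722 by limma). The groups did not overlap, by the narrow gap between C44 replicate 3 and 3B10 replicate 1. The list summed to 636, 646 and 581 in C44 and to 549, 467 and 390 in 3B10 tumors, with Casp1, the protease that matures interleukin-1β, as its most abundant gene (−0.21, SE 0.14, and −0.10 without 3B10 replicate 3). In *MMTV-PyMT* tumors 5 of 8 had a lower mean (median −0.13), with 0 called by limma and 0 in either direction at an unadjusted p under 0.05. Casp1 was again the most abundant gene (−0.50, SE 0.27, and −0.19 without C44 replicate 3), and Il1rn, the receptor antagonist, had −1.25 (SE 0.70, and −0.74 without 3B10 replicate 1). The sums were 220, 221 and 273 CPM with C44 and 208, 201 and 209 CPM with 3B10.

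Markers of other leukocytes were summed in the same 4T1 tumors. Of 11 pan-leukocyte genes 11 had a lower mean with 3B10 (median −0.43), and 8 of 11 were lower at an unadjusted p under 0.05. The summed level was 2630, 2420 and 2500 in C44 and 1870, 2070 and 1610 in 3B10 tumors, which did not overlap. Tyrobp, a signaling adaptor, was the most abundant (−0.36, SE 0.14). Cd53 had −0.54 (SE 0.12) and Ptprc, which encodes CD45, had −0.72 (SE 0.19), with no overlap for either.

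Macrophage markers had a lower mean in 15 of 17 cases (median −0.45), 5 of them at an unadjusted p under 0.05. Their sums were 13300, 10300 and 12600 with C44 and 5840, 10400 and 6510 with 3B10, and Lyz2, a lysozyme that neutrophils also make, was the most abundant gene (−0.92, SE 0.29). Ccr2, a receptor of monocytes, had −0.98 (SE 0.17) and Mrc1, the mannose receptor, had −0.75 (SE 0.21). T cell markers were held for 7 of 13 genes, and 7 of 7 had a lower mean (median −1.28), and 6 passed an unadjusted p of 0.05. They summed to 97.5, 129 and 171 in C44 and to 72.1, 77.7 and 23.5 in 3B10 tumors, with no overlap. Cd3g was the most abundant (−1.28, SE 0.41), Lck had −0.94 (SE 0.22) and Cd8a had −1.39 (SE 0.43). Without 3B10 replicate 3, the tumor with the lowest T cell sum, these were −0.78, −0.73 and −0.89. limma called 0 genes of these lists at an adjusted p under 0.05.

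Of the 11 mammary epithelial genes 10 were tested in 4T1 tumors, and 10 of 10 had a higher mean with 3B10 (median 0.50). limma called 0, and 6 passed an unadjusted p of 0.05. The sums were 3540, 3970 and 3920 with C44 and 5440, 5330 and 5570 with 3B10. Every 3B10 tumor was above every C44 tumor in this sum. Krt18, the most abundant, had 0.45 (SE 0.12), Epcam had 0.87 (SE 0.22) and Krt14, a basal keratin, had 2.36 (SE 0.56). Red blood cell genes were held for 4 of 6 genes, and 4 of 4 had a lower mean (median −0.86), 1 of them at an unadjusted p under 0.05. They summed to 57.9, 53.1 and 91.5 with C44 and to 92.8, 11.3 and 35.5 with 3B10, and Hba-a1 was the most abundant (−0.83, SE 0.71, and −0.03 without 3B10 replicate 2). None of the genes of the lists of leukocyte, macrophage, T cell, mammary epithelial and red blood cell genes was at 0 in all 6 tumors. Their part in the values of the neutrophil genes was not tested.

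**Figure D4:**
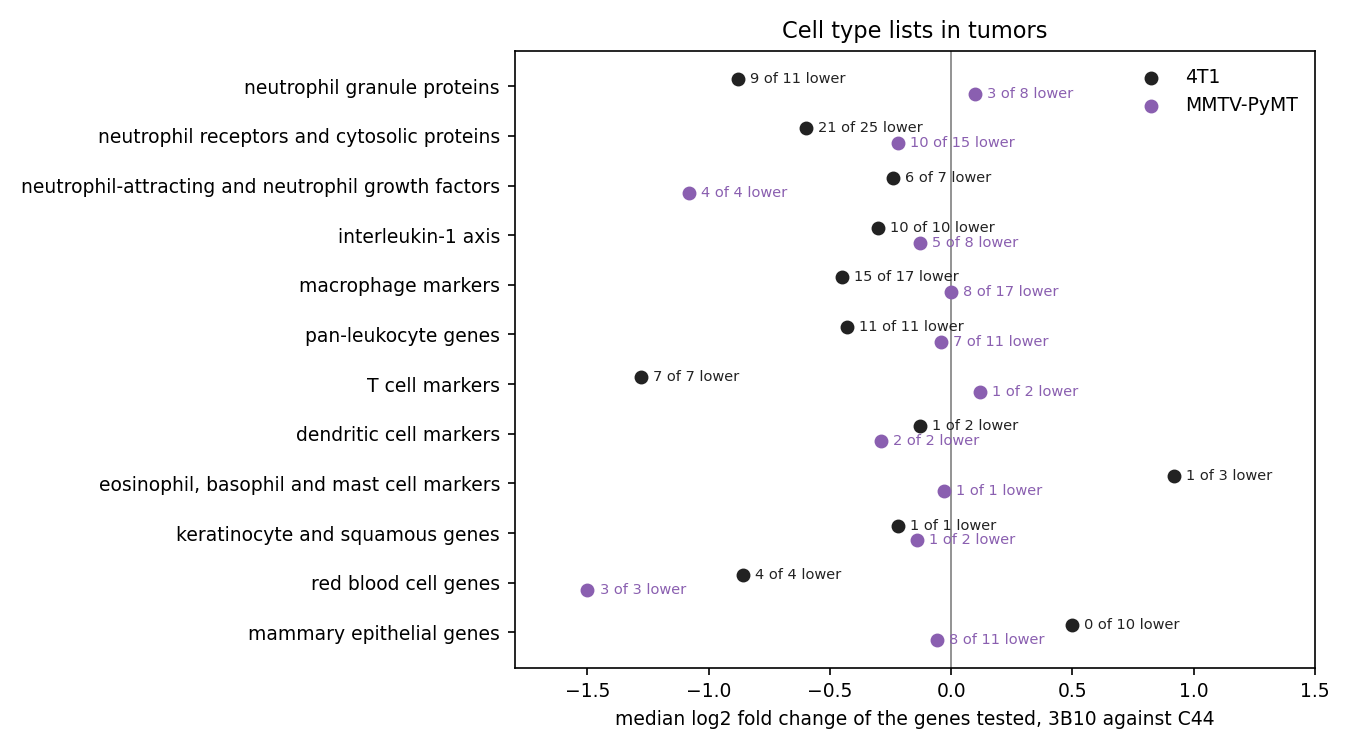
Median log2 fold change with 3B10 against C44 (x axis) of the genes tested in each cell type list (y axis), with a point per tumor model and the number tested beside it. In 4T1 tumors the T cell list lies at −1.28 and the mammary epithelial list at 0.50, and in *MMTV-PyMT* tumors the red blood cell list lies at −1.5.

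To place the neutrophil genes beside the other leukocyte genes, the mean log2 value of the 11 pan-leukocyte genes was subtracted from each of them in each sample, a step added after the values were seen. Neutrophils express pan-leukocyte genes too, so the step can also remove part of a change in neutrophils. The list is not specific to leukocytes either. It summed to a mean of 247 CPM in E0771-LG shCtrl cells, against 465 CPM in *MMTV-PyMT* C44 tumors. In 4T1 tumors Ngp then had −2.52, −1.82 and −1.52 with C44 and −3.15, −2.73 and −2.71 with 3B10. The groups still did not overlap, with a difference of −0.91. Il1b had 0.34, 0.33 and 0.24 with C44 and 0.58, −0.59 and −0.46 with 3B10. These groups now overlapped, with a difference of −0.46. Differences were smaller for S100a8 (−0.25), Clec4d (−0.18), Csf3r (−0.17) and S100a9 (−0.13), each with overlapping groups. Dhrs9 had −3.59, −3.89 and −4.91 with C44 and −3.45, −3.22 and −2.59 with 3B10. Every 3B10 tumor was higher, with a difference of 1.04. In *MMTV-PyMT* tumors the same differences ran from −0.73 for Dhrs9 to 0.14 for S100a8, and the groups overlapped for each of the 5 genes.

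In *MMTV-PyMT* tumors the other markers showed no common direction. Of the pan-leukocyte genes 7 of 11 had a lower mean (median −0.04), with sums of 488, 462 and 446 CPM with C44 and 551, 394 and 444 CPM with 3B10 and Lcp1 as the most abundant gene. Macrophage markers were lower in 8 of 17 cases (median 0.00), with sums of 1340, 1620 and 836 CPM with C44 and 1490, 1030 and 962 CPM with 3B10. C44 replicate 3, low for the neutrophil genes, was thus also the lowest of the 6 tumors in the macrophage sum. Mertk, a receptor for dying cells, was higher in every 3B10 tumor (1.32, SE 0.31, adjusted p = 1 by limma). Of 2 T cell markers tested, Lck and Cd8a, 1 was lower (median 0.12), Lck was the most abundant, and the 7 held summed to 6.31, 8 and 6.02 CPM with C44 and 6.87, 5.15 and 8.86 CPM with 3B10. Mammary epithelial genes were lower in 8 of 11 cases (median −0.06), with sums of 6200, 5900 and 4190 CPM with C44 and 4910, 5290 and 4480 CPM with 3B10 and Krt8 as the most abundant gene. limma called 0 genes of these lists, and at an unadjusted p under 0.05 there were 0 lower in each, with 1 higher among macrophage and 1 higher among mammary epithelial genes.

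Further lists had few genes in the table. Dendritic cell markers were held for 2 of 8 genes, and 1 of 2 had a lower mean in 4T1 (median −0.13) and 2 of 2 in *MMTV-PyMT* tumors (median −0.29), with Itgax as the most abundant in both. They summed to 49.4, 72.8 and 39.3 with C44 and 46.2, 43.6 and 36.7 with 3B10 in 4T1 tumors, and to 24.1, 27.4 and 17 CPM against 22.5, 21 and 12.5 CPM in *MMTV-PyMT* tumors. Eosinophil, basophil and mast cell markers were held for 3 of 10 genes. In 4T1 tumors 1 of 3 had a lower mean (median 0.92), and the sums were 21.6, 29.3 and 26.2 with C44 and 67.9, 34.2 and 38.9 with 3B10, which did not overlap. Mcpt8, a protease of basophils, was the most abundant there and had 1.02 (SE 0.30). In *MMTV-PyMT* tumors Kit alone was tested (−0.03, SE 0.17) and led the list, with sums of 331, 477 and 423 CPM with C44 and 385, 406 and 405 CPM with 3B10.

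Keratinocyte and squamous genes were held for 3 of 13 genes. In 4T1 tumors Sbsn alone was tested (−0.22, SE 0.35) and led the list, with sums of 2.18, 2.75 and 3.66 with C44 and 5.8, 1.32 and 2.29 with 3B10. In *MMTV-PyMT* tumors 1 of 2 had a lower mean (median −0.14), Calml3 led, and the sums were 36.9, 24.8 and 37.7 CPM with C44 and 56.2, 18.9 and 23.7 CPM with 3B10. limma called 0 genes of the dendritic cell, eosinophil, basophil and mast cell, and keratinocyte lists in either model, and at an unadjusted p under 0.05 it gave 1, Mcpt8 in 4T1 tumors.

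Red blood cell genes stood out among the *MMTV-PyMT* lists by their spread. Their sums were 1070, 436 and 34.4 CPM with C44 and 157, 64.1 and 69.3 CPM with 3B10. C44 replicate 3 was the lowest tumor and C44 replicate 1 the highest, so the groups overlapped. Of 3 genes tested 3 had a lower mean (median −1.5), with 0 called by limma and 1 lower at an unadjusted p under 0.05. Alas2, an enzyme of heme synthesis, had −1.70 (SE 0.69), which ran from −2.52 without C44 replicate 3 to −1.1 without C44 replicate 1. Hba-a1, the most abundant, had −1.5 (SE 1.18), which ran from −2.99 without C44 replicate 3 to −0.44 without C44 replicate 1. C44 replicate 3 was also the lowest of these 6 tumors in the sums of mammary epithelial genes and of neutrophil receptor and cytosolic genes. The part of blood content in the values of the neutrophil genes was not tested.

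The neutrophil genes were also compared among themselves and with all other genes, after each was centered on the mean of its tumor model. Over the 12 tumors, Pearson's r of the 10 pairs among the 5 genes tested in both models had a median of 0.68 and ran from −0.15 to 0.84. Within the 6 tumors of the 4T1 model the 4 pairs with Dhrs9 ran from −0.91 to −0.42, and the other 6 pairs from 0.74 to 0.98. Within the *MMTV-PyMT* tumors all 10 pairs were above 0, those with Dhrs9 from 0.02 to 0.70. Dhrs9, which also had more reads in cultured cells than in *MMTV-PyMT* tumors, is part of the mean that follows. The mean of these 5 genes was 0.31, 0.20 and 0.28 in 4T1 C44 tumors and 0.07, −0.27 and −0.59 in 3B10 tumors. In *MMTV-PyMT* tumors it was 0.66, 1.07 and −1.20 with C44 and 0.18, −0.18 and −0.52 with 3B10. C44 replicates 2 and 3 of that model were the extremes among the 12 tumors. The 10 genes whose centered values were most like this mean were Fn1, BC028528, Srgn, Trp53, Ncf4, Hal, Ripk3, Igfbp4, Cavin3 and Socs3, with r from 0.925 down to 0.879 over 12 tumors, where the median over 10885 genes was −0.06. Without *MMTV-PyMT* C44 replicate 2 or without replicate 3, 2 of these 10 genes were still among the first 10, so the list rests on those tumors.

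Srgn, a proteoglycan of granules, had an r of 0.94 within the 6 tumors of the 4T1 model and of 0.93 within those of *MMTV-PyMT*, and its log2 fold change was −0.80 (SE 0.23) and −0.48 (SE 0.53). Cavin3 had −0.11 and 0.99, so its likeness came from *MMTV-PyMT* tumors. Among the lists, the mean of the receptor and cytosolic genes other than the 7 followed the mean of the neutrophil genes with an r of 0.85 over the 12 tumors. The value was 0.83 for red blood cell genes, 0.71 for granule protein genes and 0.71 for pan-leukocyte genes. It was 0.70 for macrophage and 0.69 for dendritic cell markers, close to that of the granule protein genes. The remaining lists ran from 0.20 to 0.62. For T cell markers r was 0.87 within the 4T1 and 0.11 within the *MMTV-PyMT* tumors. For mammary epithelial genes r was −0.55 within the 4T1 and 0.95 within the *MMTV-PyMT* tumors. These are descriptions over 12 tumors or 6 of a model, and no test was made of them.

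**Figure D5:**
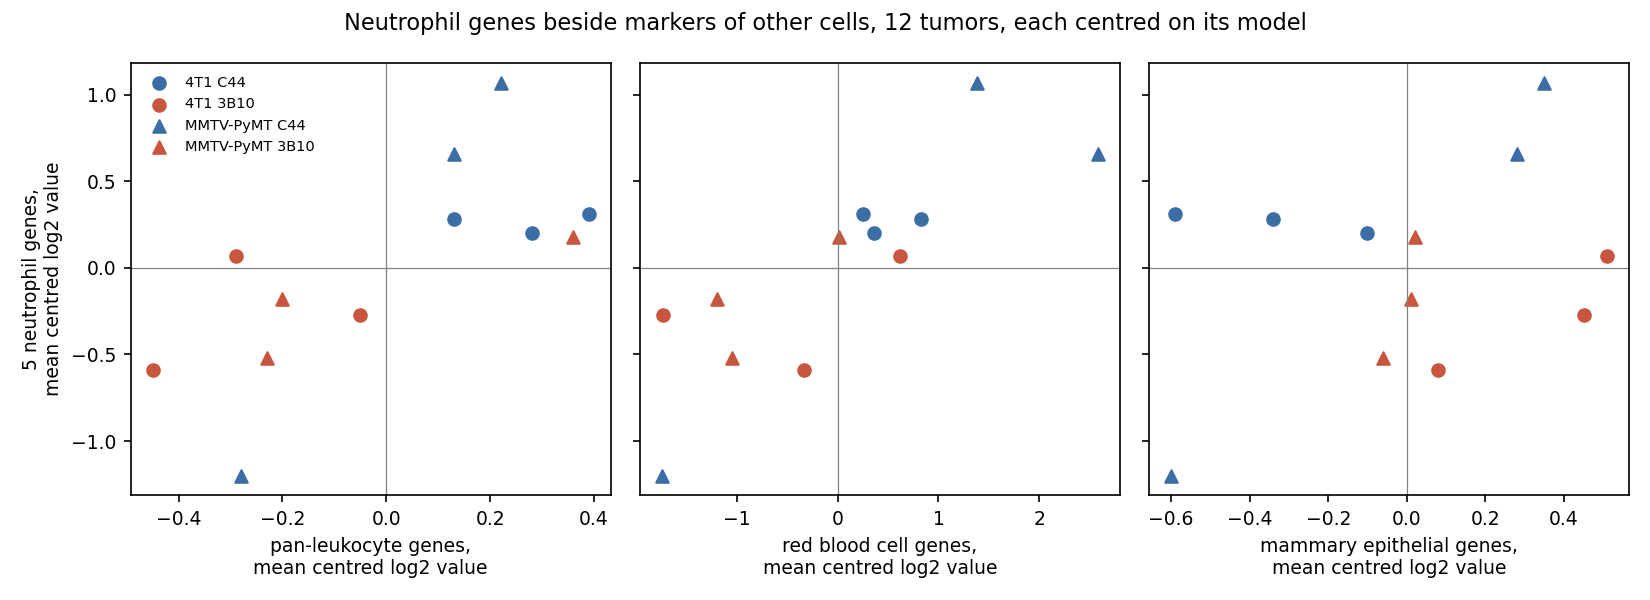
Mean of 5 neutrophil genes (y axis, log2 value centered on the mean of its tumor model) against the centered mean of markers of other cells (x axis, log2) in 12 tumors, with a point per tumor by model and antibody. *MMTV-PyMT* C44 replicate 3 lies at −1.20 and replicate 2 at 1.07 on the y axis.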

How the data were processed

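The log2 values were made by the authors before deposit, and per the submitters' notes reads were processed with HISAT2, featureCounts, edgeR and limma, versions not given, on mm10 (GRCm38). Whole reads were recovered in 18 samples (offset 0.5 reads, tolerance 0.01; 100% of values under 200 reads were whole), at 15.63 to 21.12 M reads. Values of 4T1 tumors fell with exon length (slope −0.687 against E0771-LG over 9373 genes) and were taken as length-normalized. A test of raw counts had been planned. The deposited unit is log2 and no reads could be recovered for 4T1 tumors, so limma 3.58.1 in R 4.3.3 was used throughout, and voom on recovered reads served as an alternative elsewhere. Settings were lmFit, robust eBayes with trend, Benjamini-Hochberg adjustment and a filter of 1 or more in 3 or more samples. Columns were matched to samples by the labels' descriptions, and replicate numbers follow the sample titles. For 4T1 3B10 tumors these differ from the numbers in the column names, so which tumor is replicate 1 or 2 rests on this match. Annotation was GENCODE M21. The 7 genes and 12 marker lists (granule proteins, receptors and cytosolic proteins, attracting and growth factors, interleukin-1 axis, macrophage, pan-leukocyte, T cell, dendritic cell, eosinophil with basophil and mast cell, keratinocyte, red blood cell and mammary epithelial genes) were chosen with earlier results of these data known. From each list the most abundant gene and those of lowest p were named, apart from 2 that are not reported here. The interaction of cell lines and the subtraction of the leukocyte mean were added after the values were seen.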

Additional observations from a re-analysis of the deposited data

Results flagged for a closer look

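Dhrs9 was lower with shPTN in E0771-LG cells and was not called in E0771 cells, and the difference between the lines was −1.33 on the log2 scale (SE 0.25, adjusted p = 0.00129 by limma). The same test called 34.0% of 10600 genes, so a call was common, and 22.1% of genes were lower with shPTN in E0771-LG. In the limma fit of all 24 samples the adjusted p of the difference was 0.175, and over the alternatives it ran from 1.74e-06 to 0.175. Reads were 484, 413 and 526 with shCtrl and 216, 164 and 252 with shPTN in E0771-LG, against 306, 323 and 283 and 325, 327 and 314 in E0771.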

How the results depend on the processing

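In 4T1 tumors the 7 neutrophil genes kept their direction, and 0 were called by limma, in 77 of 77 values from other settings and in 42 of 42 values from leaving out 1 tumor. The count at an unadjusted p under 0.05 was less stable. It was 0 of 7 in the fit of all 24 samples (6.07% of all genes) and 1 of 7 in the fit of the 12 tumors (4.31%). It was 6 of 7 with arrayWeights (17.7%) or without 3B10 replicate 1 (9.33%), against 6.27% of all genes in the fit reported. Leaving out 1 tumor moved Zbtb46 between −0.06 and 0.27, Sbsn between −0.55 and 0.10 and Pf4 between −0.25 and 0.40.

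In *MMTV-PyMT* tumors S100a8 turned to −0.02 under quantile normalization and to −0.41 with arrayWeights. Lck turned to −0.02 with arrayWeights, and Cd8a to 0.02 with a pseudocount of 1, 0.08 under quantile normalization and 0.17 with arrayWeights. Leaving out 1 tumor gave −0.72 to 0.77 for S100a8, −1.86 to 0.68 for S100a9 and −1.43 to 0.07 for Dhrs9. Among other genes it gave −0.50 to 0.06 for Cd53, −0.37 to 0.03 for Spi1, −0.01 to 0.39 for Lck, −0.12 to 0.23 for Cd8a where it passed the filter, −0.25 to 0.37 for Lrg1, −0.54 to 0.09 for Zbtb46 and −0.18 to 0.09 for Kit. From group means alone Cd8a was −0.42 without 3B10 replicate 1. The cause was not tested.

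The difference between the models turned to −0.00 for S100a9 with arrayWeights. For Ngp it turned to 1.06 and 0.28 with pseudocounts of 1 and 0.1 and to 0.22 with arrayWeights, and for Clec4d to 0.01 with a pseudocount of 1. Both genes passed the filter through the 4T1 tumors alone, so these values do not speak to a difference. Leaving out 1 tumor gave −1.20 to 1.34 for S100a9, −1.37 to 1.34 for Ngp, −0.09 to 0.78 for Il1b and −1.19 to 0.20 for Clec4d.

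In E0771 cells 1 of 3 genes was called with arrayWeights, beside 54.1% of all genes, and leaving out 1 sample gave −1.11 to 0.12 for S100a8. In E0771-LG cells 0 of 3 were called in the fit of all 24 samples, beside 39.6% of all genes. When 1 sample was left out, 1 to 2 were called, beside 31.1% to 49.3% of all genes. As different between the lines, 2 of 3 were called with arrayWeights, beside 64.6% of all genes, and 0 in the fit of all 24 samples, beside 22.3%.

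A block for replicate number was the nearest thing to pairing that the samples share. With it the members called were 0 in both tumor models and 0 for their difference, beside 0% of all genes each. In E0771 the block gave 0 of 3 beside 23.6% of all genes, and in E0771-LG 2 of 3 beside 48.2%. For the difference between lines it gave 1 of 3 beside 35.5%. Deviations of samples with the same number had an r of −0.327 to 0.436 in the 4T1 model, so no pairing was used.

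Each group has 3 samples. The depth of the 4T1 tumors is unknown, so voom weights were not run for them or for the difference between the models. The 4T1 scale was inferred from exon length. Bulk RNA holds no count of neutrophils. arrayWeights converged poorly in 2 fits. The shPTN cells carry 1 shRNA, and the lines come from another strain than either tumor model.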

Other observations

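The sums of the lists also differed between the cell lines. Pan-leukocyte genes summed to a mean of 52.3 CPM in E0771 shCtrl and 103 CPM in shPTN cells, and to 247 and 286 CPM in E0771-LG. Mammary epithelial genes summed to a mean of 178 CPM in E0771-LG shCtrl and 509 CPM in shPTN cells, against 111 and 113 CPM in E0771. Cxcl1 had 208, 380 and 250 reads in E0771 shCtrl and 117, 58 and 110 in shPTN cells (−1.54, SE 0.29, adjusted p = 0.00432 by limma), against 6985 to 12291 reads per E0771-LG sample. Lif had 133, 274 and 227 reads in E0771 shCtrl and 134, 78 and 99 in shPTN cells (−0.96, SE 0.26, adjusted p = 0.0258 by limma), and −0.13 (SE 0.38, adjusted p = 0.795 by limma) in E0771-LG cells. The E0771-LG value of Lif ran from −0.5 without shCtrl replicate 1 to 0.25 without shCtrl replicate 2. Hal, a histidine ammonia-lyase, had a log2 fold change of −0.99 (SE 0.23) in 4T1 tumors and −0.36 (SE 0.61) in *MMTV-PyMT* tumors, and an r of 0.98 with the mean of 5 neutrophil genes over 6 tumors of the 4T1 model.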
